A study of Mus musculus with 6 samples.

Results

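The 34 genes described here encode the folding and disposal machinery of the endoplasmic reticulum (ER), the compartment where secreted and membrane proteins are made, together with the sensors that monitor it. They were taken by name from the deposited gene table, and all 34 were found among its 28154 genes. By role they are 4 sensors (with the transcription factor downstream of them), 17 chaperones and folding enzymes, 9 degradation factors and 4 factors of the translocon, the channel through which new proteins enter the ER. The libraries came from 4T1, a cell line grown from a mouse mammary carcinoma. The control group holds 3 libraries and the corticosterone group 3, corticosterone being the main glucocorticoid of mice. All 6 come from this line and differ in the labels only by treatment. Dose, duration and vehicle of treatment were not found in the labels used here. Nothing says that the replicates were separate cultures, and p-values then reflect only the spread of these samples, which may be technical.

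Proteins entering the ER are bound by the HSP70 chaperone BiP (Hspa5), by HSP90 and by the lectin chaperones, and their disulfide bonds are formed by the protein disulfide isomerases. Those that stay misfolded are drawn back through the membrane, ubiquitinated and destroyed by the proteasome, a route called ER-associated degradation (ERAD). When unfolded proteins accumulate, the sensors IRE1 (Ern1), PERK (Eif2ak3) and ATF6 start the unfolded protein response, in which XBP1 and cleaved ATF6 act on chaperone and ERAD genes through promoter elements called ERSE and ERSE-II. PERK instead phosphorylates the translation factor eIF2, which raises translation of ATF4, and other kinases reach ATF4 without ER stress. Counts per gene do not separate spliced from unspliced Xbp1 and say nothing of ATF6 cleavage, so the activity of the sensors was not measured here.

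Library totals lay between 62.2 and 66.2 M counts, and 22244 to 22683 genes had at least 1 count in a library. Epithelial markers matched the labelled line, with summed values of 1270 to 1496 FPKM (fragments scaled by transcript length and library depth) over 5 genes in each library. The 6 fibroblast markers summed to 12.3 to 13.9 FPKM and the 5 leukocyte markers to 21.4 to 25.7 FPKM, of which Cd68 gave 18.8 to 23.4. The 4 endothelial markers summed to at most 0.286 FPKM and Ptprc, the pan-leukocyte marker, reached at most 0.237 FPKM. Markers of professional secretory cells summed to 34.5 to 36.5 FPKM, nearly all from Sdc1, which epithelial cells also express, while the plasma cell gene Jchain reached at most 0.0220 FPKM. The treatment labels were checked on 5 textbook targets of the glucocorticoid receptor, all of which rose, among them Tsc22d3 from 23.9 ± 1.10 to 70.1 ± 2.27 CPM (counts scaled to library depth; SD, n = 3). Among the treated libraries, replicate 2 differed most from the rest: the chi-square statistic of their counts per degree of freedom was 42.5 and 66.9 for its pairings, 10.4 for the other treated pair and 8.76 to 15.2 among controls. Where leaving it out changed a call for an ER gene, the value without it is given too.

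Of the 34 ER genes, 2 rose with corticosterone, Herpud1 and Hspa5, and 32 did not pass (edgeR quasi-likelihood test, Benjamini-Hochberg adjusted p under 0.05 over 17283 tested genes). All 34 had enough counts to be tested. In bulk RNA, fewer cells with a transcript and less of it per cell cannot be told apart. Among all tested genes 2.82% changed, 1.35% being higher and 1.46% lower. None of the ER genes fell in edgeR. At an unadjusted p under 0.05, 0 were lower (8.8% of all tested genes), DESeq2 called 0 lower (4.45% of all) and limma-voom with library weights 2 (13.8% of all). The ER genes leaned to one side, as did some of the related lists described later. Of the 34, 29 had a log2 fold change above 0 and 5 below. Their median was 0.11 against 0.00 over all tested genes, and their range was -0.13 to 0.53. At an unadjusted p under 0.05, 13 were higher, against 8.23% of all tested genes. All treated libraries stood above all controls for 13 of the genes and below all controls for 1, Txndc5, and the same held for 10.6% and 11.6% of all tested genes. Without corticosterone replicate 2, 13 ER genes rose and 2 fell, where 10.5% of all 17862 genes then tested rose and 10% fell. On the same counts DESeq2 called 8 of the ER genes higher (4.21% of all genes) and limma-voom with library weights 14 (13.5% of all). The count of calls thus depended on 1 library and on the tool, while no ER gene that passed had the opposite sign under any alternative that was run.

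**Figure D1:**
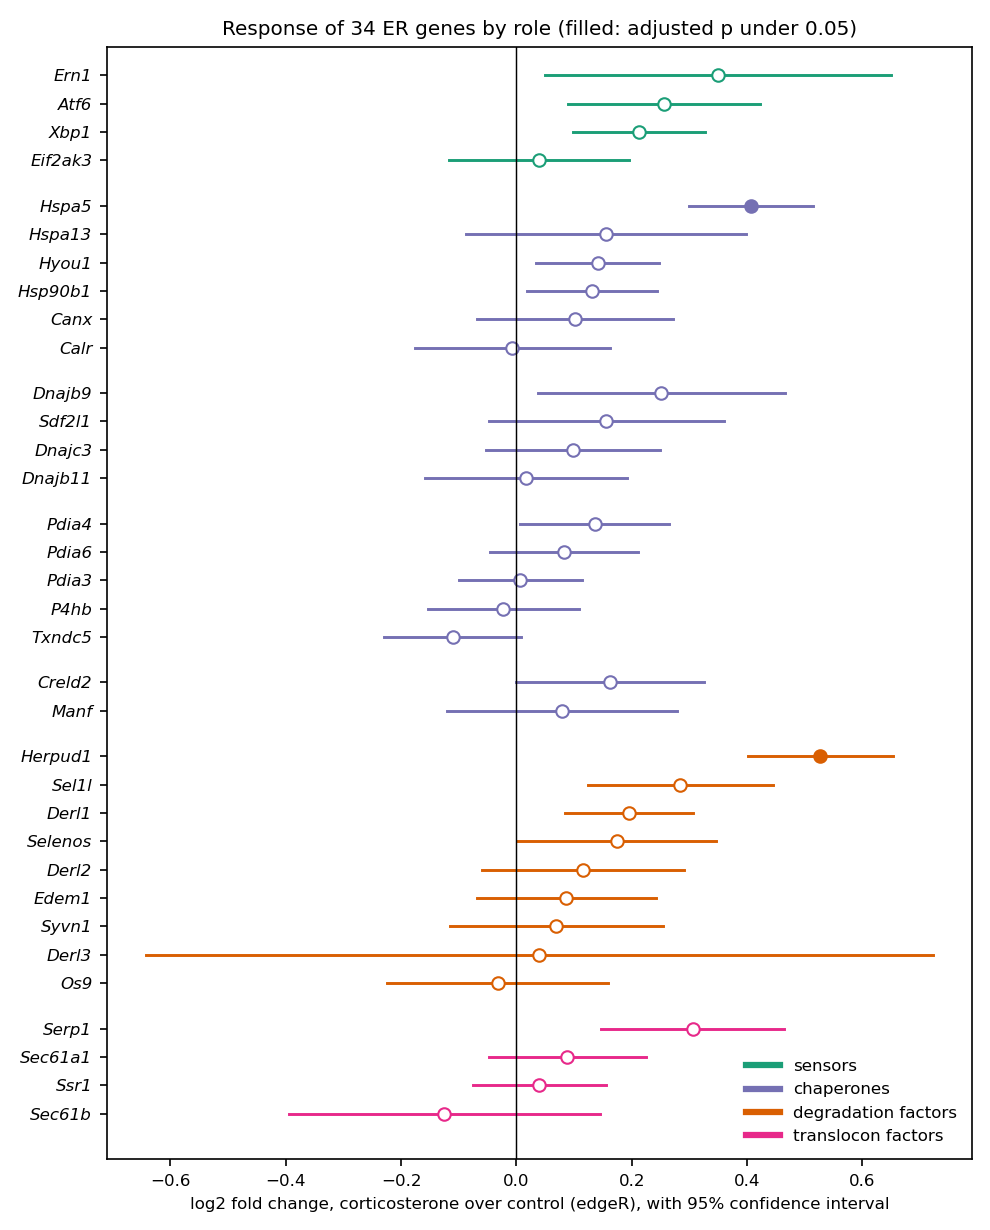
Log2 fold change (horizontal axis, corticosterone over control, 3 libraries each) of the 34 ER genes ordered by role, with bars for the 95% confidence interval. Filled points mark the 2 genes that passed, Herpud1 at 0.53 and Hspa5 at 0.41, and 5 points lie below 0.

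Of the 3 sensors and the transcription factor Xbp1, none passed (edgeR, Benjamini-Hochberg), although all 4 had a log2 fold change above 0, with a median of 0.23. At an unadjusted p under 0.05, 3 were higher (8.23% of all tested genes). DESeq2 called 2 higher, Xbp1 and Atf6 (4.21% of all), and limma-voom with library weights 3 (13.5% of all). Xbp1, which encodes the factor activated by IRE1, had 137, 138 and 143 CPM in the controls and 162, 166 and 157 CPM with corticosterone. All treated libraries thus stood above all controls, within a narrow range in each group. Its log2 fold change of 0.21 (95% confidence interval 0.10 to 0.33, and likewise in parentheses after later fold changes) missed the threshold with an adjusted p = 0.0685. Without treated replicate 2 it was 0.19 and passed (adjusted p = 0.0137). With all libraries kept, Xbp1 passed in 6 of the 10 other fits that were run.

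Atf6, the membrane-bound transcription factor that is cut free in the Golgi under stress, had 118, 118 and 115 CPM in the controls and 148, 125 and 147 CPM with corticosterone. The groups did not overlap, but treated replicate 2 lay just above the controls and replicates 1 and 3 well above them. The log2 fold change was 0.26 (0.09 to 0.42; adjusted p = 0.122), and 0.33 with adjusted p = 0.00124 without that library. Ern1, which encodes the kinase and RNase IRE1, had 52.1, 47.3 and 51.6 CPM in the controls and 67.2, 50.4 and 74.7 CPM with corticosterone. Here treated replicate 2 lay inside the control range. The log2 fold change of 0.35 (0.05 to 0.65) did not pass (adjusted p = 0.229), and without replicate 2 it was 0.50 (adjusted p = 0.00179).

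Eif2ak3, which encodes the kinase PERK, had 54.1, 51.9 and 47.4 CPM in the controls and 53.0, 50.8 and 53.8 CPM with corticosterone, with overlapping groups. Its log2 fold change of 0.04 had an interval of -0.12 to 0.20, and none of the fits without 1 library called it. By level per length, Xbp1 was the most abundant of the 4 in controls, at 37.9 ± 0.716 FPKM (SD, n = 3). Atf6 had 11.2 ± 0.255 FPKM, Eif2ak3 7.49 ± 0.530 FPKM and Ern1 5.44 ± 0.279 FPKM.

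Among the 17 chaperones and folding enzymes 1 rose, Hspa5, and 16 did not pass (1.35% of all tested genes rose). The median log2 fold change of this group was 0.10, with 14 genes above 0 and 3 below. Hspa5 (BiP), the HSP70 of the ER lumen and the partner that holds the sensors inactive, had 1846, 1921 and 1991 CPM in the controls and 2549, 2493 and 2591 CPM with corticosterone. The lowest treated library lay far above the highest control, and treated replicate 2 was close to its group. Hspa5 (ENSMUSG00000026864, chr2:34771970-34777547, plus strand, GRCm38) rose 1.33-fold, by 0.41 on the log2 scale (0.30 to 0.51; adjusted p = 0.0046). The call held in 5 of the 6 fits that leave out 1 library and was lost without control replicate 2, with adjusted p = 0.0586. It was also the most abundant of the 34 genes per length, going from 401 ± 13.4 to 534 ± 18.1 FPKM.

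The other chaperones of the HSP70 and HSP90 families did not pass with all libraries. Hsp90b1, the ER form of HSP90, had 967, 977 and 1006 CPM in the controls and 1054, 1054 and 1123 CPM with corticosterone. The groups did not overlap, yet the difference of 0.13 on the log2 scale (0.02 to 0.24) did not pass (adjusted p = 0.229). Hyou1, a large HSP70 relative that exchanges the nucleotide of BiP, had 235, 243 and 242 CPM in the controls and 268, 261 and 265 CPM with corticosterone. It too showed no overlap and a small difference, of 0.14 (0.03 to 0.25; adjusted p = 0.173). Hspa13, a less studied microsomal HSP70, had a log2 fold change of 0.16 (-0.09 to 0.40) with treated replicate 2 inside the control range. Without that library all 3 passed, Hspa13 at 0.26 (adjusted p = 0.0285), Hyou1 at 0.15 (adjusted p = 0.0247) and Hsp90b1 at 0.15 (adjusted p = 0.0341), and DESeq2 called Hyou1 with all libraries. With all libraries, the confidence intervals of Hsp90b1 and Hyou1 lay wholly below that of Hspa5.

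The lectin chaperones calnexin and calreticulin, which hold glycoproteins during folding, did not pass either. Canx, the membrane-bound one, had 615, 595 and 593 CPM in the controls and 661, 574 and 699 CPM with corticosterone. Calr, the soluble one, had 586, 618 and 653 CPM in the controls and 589, 679 and 581 CPM with corticosterone. In Canx treated replicate 2 was the lowest of all 6 libraries, and in Calr it was the highest. Their log2 fold changes were 0.10 (-0.07 to 0.27) and -0.01 (-0.18 to 0.16). Without treated replicate 2, Canx rose by 0.18 (adjusted p = 0.0147), and Calr had -0.08 (adjusted p = 0.269).

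Of the J-domain proteins that stimulate BiP, and their partner Sdf2l1, none passed. Among them 1 was higher at an unadjusted p under 0.05 (8.23% of all tested genes), and DESeq2 called 0 higher (4.21% of all). Dnajb9 (ERdj4), which recruits BiP to IRE1, had 22.5, 19.6 and 18.4 CPM in the controls and 23.7, 23.0 and 25.3 CPM with corticosterone. The groups did not overlap, but the lowest treated library exceeded the highest control only slightly. Its log2 fold change was 0.25 (0.04 to 0.47; adjusted p = 0.227). Sdf2l1 had 0.16 (-0.05 to 0.36), Dnajc3 (P58IPK, which also inhibits PERK) 0.10 (-0.05 to 0.25) and Dnajb11 (ERdj3) 0.02 (-0.16 to 0.19).

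The 5 protein disulfide isomerases had a median log2 fold change of 0.01, and none passed. At an unadjusted p under 0.05, 1 was higher (8.23% of all tested genes), and DESeq2 called 0 higher (4.21% of all). Pdia4 had the highest value, 0.14 (0.01 to 0.27; adjusted p = 0.277), with no overlap of the groups, and it passed without treated replicate 2 (0.18, adjusted p = 0.0133). Pdia6, which also binds IRE1, had 0.08 (-0.05 to 0.21). Pdia3, the partner of calnexin and calreticulin, had 564, 587 and 579 CPM in the controls and 569, 586 and 583 CPM with corticosterone. Those values lay within a span of a few percent, and the log2 fold change was 0.01 (-0.10 to 0.11). P4hb, the most abundant isomerase per length at 274 ± 8.11 FPKM in the controls, had -0.02 (-0.15 to 0.11). Txndc5 had 308, 317 and 315 CPM in the controls and 293, 301 and 277 CPM with corticosterone. It was the gene with all treated libraries below all controls, at -0.11 (-0.23 to 0.01; adjusted p = 0.326), and without treated replicate 2 it fell by 0.14 (adjusted p = 0.0455). The intervals of all 5 isomerases lay wholly below that of Hspa5 (0.30 to 0.51).

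Manf and Creld2 encode ER-resident proteins that are also secreted under ER stress. Creld2 had 38.0, 38.8 and 40.2 CPM in the controls and 41.0, 46.8 and 43.2 CPM with corticosterone, without overlap and with replicate 2 highest (log2 fold change 0.16, -0.00 to 0.32; adjusted p = 0.294). Manf had overlapping groups and a log2 fold change of 0.08 (-0.12 to 0.28). A share of the Manf locus is also covered by Dcaf1, 4930524O07Rik and Gm37612 on the opposite strand. Their counts together came to 34.5% of those of Manf. Of these, Dcaf1 and 4930524O07Rik share 8.85% of its exon bases, and the sources used here do not say whether counting used strand. Rbm15b lies in the same locus on the same strand as Manf.

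Of the 9 degradation factors 1 rose, Herpud1, and 8 did not pass (1.35% of all tested genes rose). The median log2 fold change was 0.12, with 8 genes above 0 and 1 below. Herpud1, a ubiquitin-like membrane protein that brings substrates to the retrotranslocation complex, had 77.1, 79.7 and 83.3 CPM in the controls and 115, 119 and 112 CPM with corticosterone. The groups were far apart and each was tight. Herpud1 (ENSMUSG00000031770, chr8:94386438-94395377, plus strand, GRCm38) rose 1.44-fold, by 0.53 on the log2 scale (0.40 to 0.65; adjusted p = 0.00286), the largest change among the 34. The call held in all 6 fits without 1 library, with adjusted p up to 0.0376. The gene on its opposite strand, Gm15890, held 0.0106% as many counts and shares no exon bases with it.

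Other parts of the ubiquitin ligase complex that Herpud1 serves did not pass in the main edgeR fit. On the same 6 libraries Sel1l and Derl1 were called by DESeq2, limma-voom with library weights and edgeR with offsets for GC content and length. With a mean FPKM of at least 5, edgeR also called Derl1 (adjusted p = 0.0367). Sel1l, the adaptor of that complex, had 88.0, 85.0 and 87.3 CPM in the controls and 108, 95.5 and 113 CPM with corticosterone. All treated libraries stood above the controls, with replicate 2 the lowest of them, and the log2 fold change of 0.28 (0.12 to 0.45) missed the threshold at an adjusted p = 0.0787. Derl1, a derlin of the retrotranslocation channel, had 239.5, 249 and 254 CPM in the controls and 288, 283 and 279 CPM with corticosterone. It was as clearly apart, with 0.20 (0.08 to 0.31; adjusted p = 0.0804). Syvn1, which encodes the ligase HRD1 itself, had 86.7, 94.7 and 95.1 CPM in the controls and 94.5, 107 and 88.2 CPM with corticosterone. Its groups overlapped and its log2 fold change was 0.07 (-0.12 to 0.25). Mrpl49, on the opposite strand at the Syvn1 locus, held 67.2% as many counts as Syvn1 and shares 1.87% of its exon bases. Without treated replicate 2, Sel1l (adjusted p = 0.00131) and Derl1 (adjusted p = 0.0123) rose beside Herpud1, and Syvn1 had -0.01.

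The remaining degradation factors did not pass. Selenos, a selenoprotein that anchors the ATPase p97 to the membrane, had a log2 fold change of 0.17 (0.00 to 0.35) without overlap of the groups. Derl2 had 0.12 (-0.06 to 0.29), Edem1, a mannosidase-like protein that marks glycoproteins for disposal, 0.09 (-0.07 to 0.24), and Os9, a lectin that reads that mark, -0.03 (-0.22 to 0.16). Derl3 was scarce, with 0.873 to 1.59 CPM in the 6 libraries, and its wide interval (-0.64 to 0.72) left a change of the size of Herpud1 undetectable at this depth.

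The 4 translocon factors had a median log2 fold change of 0.06, and none passed. At an unadjusted p under 0.05, 1 was higher (8.23% of all tested genes), and DESeq2 called 1 higher, Serp1 (4.21% of all). Serp1 (RAMP4), a small protein that sits at the channel and steadies new membrane proteins under stress, had 233, 229 and 236 CPM in the controls and 289.6, 261 and 313 CPM with corticosterone. The groups did not overlap and replicate 2 was the lowest treated library. Its log2 fold change of 0.31 (0.15 to 0.46) missed the threshold at an adjusted p = 0.0614, and only Herpud1, Hspa5 and Ern1 had a higher value among the 34. Eif2a, on the opposite strand, held 65.3% as many counts as Serp1 and shares 1.56% of its exon bases. Without treated replicate 2, Serp1 rose by 0.37 (adjusted p = 0.00115). Sec61a1, the pore of the channel, had 0.09 (-0.05 to 0.22) and Ssr1, a subunit of the translocon-associated complex, 0.04 (-0.08 to 0.15). Sec61b, a small subunit of the channel, had 71.3, 77.9 and 85.6 CPM in the controls and 66.8, 85.3 and 63.2 CPM with corticosterone. Treated replicate 2 stood inside the control range and the other treated libraries below it, so the log2 fold change went from -0.13 (adjusted p = 0.64) to -0.27 (adjusted p = 0.0332) when replicate 2 was left out.

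**Figure D2:**
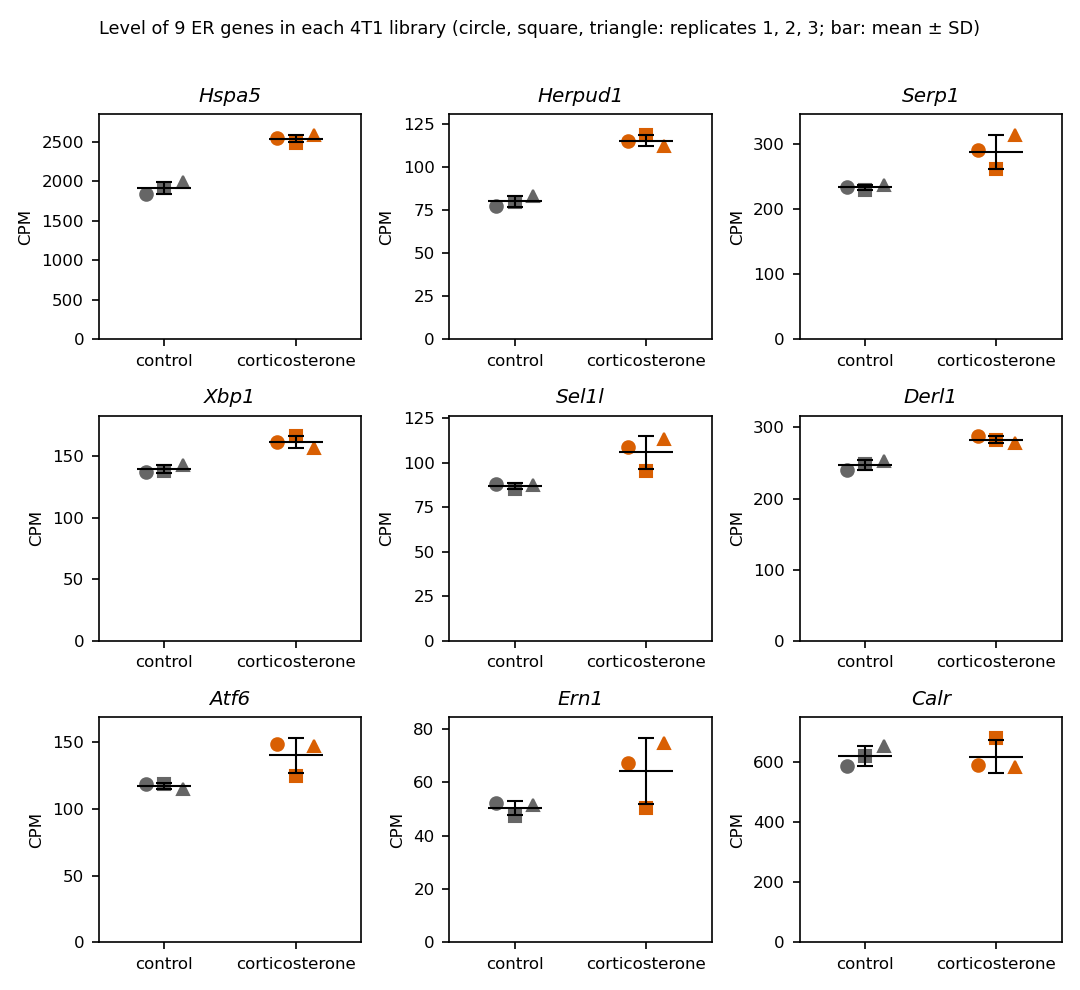
CPM (vertical axes, from 0) of 9 ER genes in each library, with control in grey and corticosterone in orange, symbols for replicates 1 to 3, and bars for the mean and SD. Hspa5, Herpud1, Xbp1 and Derl1 have all treated libraries close together above the controls, while in Atf6, Ern1, Sel1l and Serp1 treated replicate 2 (square) is the lowest treated library and in Calr it is the highest.

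The promoters of the ER genes were searched for ERSE, ERSE-II and the core of UPRE, a further element of the unfolded protein response. The palindrome of the glucocorticoid receptor was also searched for, and elements bound by ATF4 were not. RefSeq windows (GRCm38.p6, 250 bases before to 50 after the start of transcription) were found for 28 of the 34 genes, and not for Atf6, Derl1, Hspa13, Hyou1, Manf and Sec61a1. On both strands the letters of ERSE, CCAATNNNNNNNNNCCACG, were in the window of 9 ER genes (32.1%) against 37 of the 27025 genes in the table (0.137%). Those 9 were Hspa5, Hsp90b1, Calr, Canx, Pdia6, Dnajc3, Creld2, Derl3 and Syvn1. ERSE-II, ATTGGNCCACG, was in 2, Herpud1 and Dnajb11 (7.14%), against 12 of all genes (0.0444%). The core UPRE, TGACGTGG, was in Txndc5 alone of the 28, against 0.714% of all genes. The palindrome of the glucocorticoid receptor, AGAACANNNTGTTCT, was in none of the 28 and in 3 of all genes (0.0111%). A match says only that these letters are present, and a window without one says nothing of the factor.

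The 250 bases before the start are shown for the 2 genes that rose, and shorter stretches for 5 genes that hold ERSE and did not pass, each read 5′ to 3′ on the strand of its gene with the match in capitals. The stretches are chr2:34771840-34772089 (Hspa5, plus strand), chr8:94386179-94386428 (Herpud1, plus), chr10:86705618-86705676 (Hsp90b1, minus), chr8:84847055-84847113 (Calr, minus), chr11:50325780-50325838 (Canx, minus), chr12:17266471-17266529 (Pdia6, plus) and chr19:6046512-6046570 (Syvn1, plus). In Hspa5 the match ends 46 bases before the RefSeq start, and in Herpud1 it ends 41 bases before. In Calr it is on the other strand and so reads as CGTGG, a spacer and ATTGG. Hsp90b1 holds a second match nearer to its start, not shown. The Hspa5 gene of the deposited table begins at 34771970, inside the window shown.
Hspa5: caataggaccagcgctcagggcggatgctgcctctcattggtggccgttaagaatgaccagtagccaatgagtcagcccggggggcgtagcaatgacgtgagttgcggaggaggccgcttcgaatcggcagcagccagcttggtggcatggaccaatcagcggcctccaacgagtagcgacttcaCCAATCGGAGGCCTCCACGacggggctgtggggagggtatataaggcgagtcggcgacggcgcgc
Herpud1: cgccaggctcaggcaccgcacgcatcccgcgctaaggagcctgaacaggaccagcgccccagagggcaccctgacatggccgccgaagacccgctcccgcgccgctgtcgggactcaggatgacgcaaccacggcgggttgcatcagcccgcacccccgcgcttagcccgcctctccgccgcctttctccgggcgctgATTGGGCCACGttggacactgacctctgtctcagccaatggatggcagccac
Hsp90b1: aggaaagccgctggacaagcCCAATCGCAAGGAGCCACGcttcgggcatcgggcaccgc
Calr: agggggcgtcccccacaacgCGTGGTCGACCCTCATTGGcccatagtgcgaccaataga
Canx: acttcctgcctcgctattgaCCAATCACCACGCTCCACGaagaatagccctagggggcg
Pdia6: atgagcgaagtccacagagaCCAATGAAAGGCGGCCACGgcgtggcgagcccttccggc
Syvn1: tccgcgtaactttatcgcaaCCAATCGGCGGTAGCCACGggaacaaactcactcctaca

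The fold changes were set beside these matches. Of the 9 ER genes with ERSE, 1 rose (Hspa5), and the median log2 fold change was 0.10. Of the 19 with a window and no ERSE, 1 rose (Herpud1), and the median was 0.12. The 6 genes with ERSE printed above had log2 fold changes from -0.01 (Calr) to 0.41 (Hspa5). Outside the list, 14 tested genes held ERSE, with a median of -0.03. None of them changed in edgeR, 2 had an unadjusted p under 0.05, and DESeq2 called 0. Of all tested genes, edgeR called 1.35% higher and 1.46% lower, and DESeq2 4.21% and 4.45%. At an unadjusted p under 0.05, 8.23% were higher and 8.8% lower. For ERSE-II, Herpud1 rose and Dnajb11, whose match lies after the start, had 0.02.

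As a share of all counts, the 34 genes took 0.891%, 0.913% and 0.926% of the control libraries and 1.02%, 1.004% and 1.04% of the treated ones. Each treated library was above each control, with means of 0.910 ± 0.0179% and 1.02 ± 0.0177% (SD, n = 3; p = 0.1 by exact two-sided permutation of libraries, the smallest that 3 against 3 allows). Hspa5 alone made up 20.8% to 21.3% of these counts in controls and 24.5% to 25.2% with corticosterone. Without Hspa5 the share was 0.719 ± 0.0119% and 0.767 ± 0.00924% (exact permutation, p = 0.1). BiP thus carried a large part of the difference in counts, and the other 33 genes the rest.

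Treated replicate 2 did not shift the ER genes in a common direction. Of the 34, it was below both other treated libraries in 15, above both in 17 and between them in 2. Its position was ordered by transcript composition: over the 34 genes, its difference from the mean of the other treated libraries had a Spearman rho of 0.75 with the GC content of the longest transcript and -0.76 with its length. These are descriptions over genes that share the libraries. Ern1, Atf6, Sel1l and Serp1 lay at the low end of this difference and Sec61b, Manf, Calr and Derl3 at the high end, while Hspa5 and Herpud1 lay near 0. Measured library by library against the control mean, rho with GC content was -0.48, 0.21 and 0.45 in control replicates 1, 2 and 3. In treated replicates 1, 2 and 3 it was -0.52, 0.41 and -0.55. Over 17258 genes the same rho was -0.18, 0.03 and 0.17 in the controls. It was -0.21, 0.13 and -0.28 in the treated libraries, with the same signs as in the ER genes and smaller. Controls are measured here against their own mean, so values of both signs among them are largely built in and say little. Within the treated group replicate 2 lay opposite to the other 2. When library-specific trends on GC content and length were removed by offsets, 7 ER genes rose, against 3.37% of all tested genes: Hspa5, Herpud1, Xbp1, Sel1l, Derl1, Serp1 and Creld2. Under these offsets Atf6 went from 0.26 to 0.16 on the log2 scale and Ern1 to 0.29, while Herpud1 was at 0.59 and Hspa5 at 0.37.

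**Figure D3:**
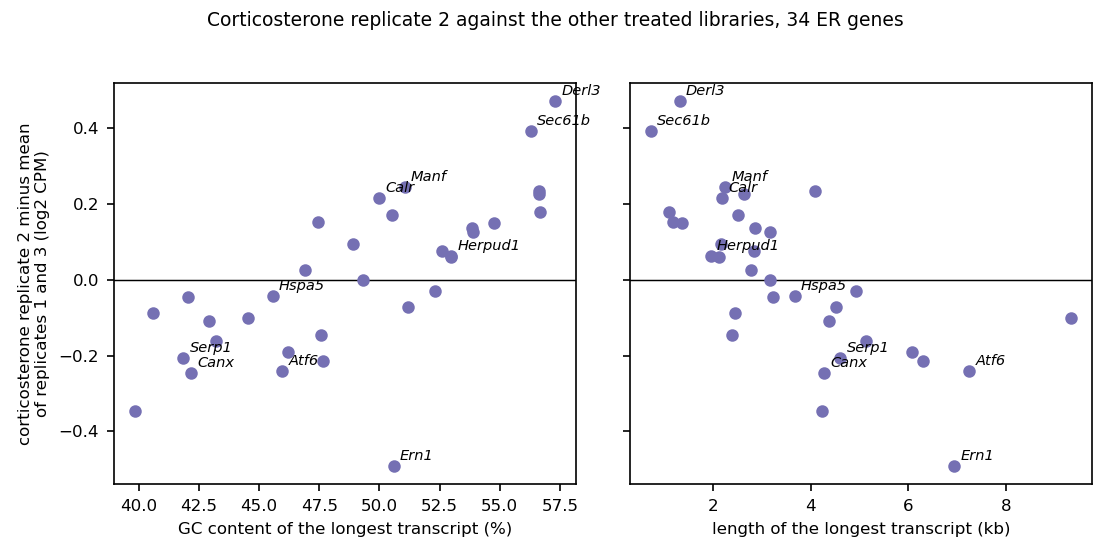
Difference of corticosterone replicate 2 from the mean of the other treated libraries (vertical axis, log2 CPM) for the 34 ER genes, against GC content in percent (left) and length in kilobases (right) of the longest transcript. The points rise with GC content (rho 0.75) and fall with length (rho -0.76), and Hspa5 and Herpud1 lie near 0.

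Other genes of the same pathways give the setting of these values. Of 21 genes of the PERK and ATF4 branch, 13 rose and 0 fell (1.35% and 1.46% of all tested genes). The median log2 fold change was 0.39, and all treated libraries were above all controls for 18 (10.6% of all tested genes). Among the 8 that did not pass in edgeR were Atf4 itself (0.29, adjusted p = 0.088) and Ddit3 (0.35, adjusted p = 0.149). Nupr1 (-0.01) and Ppp1r15b (0.10) did not pass either. The log2 rise was 0.49 for Slc7a5, a transporter of large neutral amino acids, 0.61 for the asparagine synthetase gene Asns and 0.80 for Chac1, a glutathione-degrading enzyme. Each of these 3 calls held in all 6 fits without 1 library. Over those fits the count for the branch was lowest, at 4, without control replicate 2, where 88 of all tested genes changed. It was highest, at 17, without corticosterone replicate 2, where 3670 changed and 10.5% of all tested genes rose. The mean shift of the branch was 0.37, 0.44 and 0.37 in treated replicates 1, 2 and 3, so replicate 2 did not stand below the others there. For the 34 ER genes the same measure was 0.11, 0.13 and 0.14, and for the sensors 0.26, 0.09 and 0.28. These lists are set side by side, with no test of the difference between them.

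The other ER lists held few or no calls. Of all tested genes, edgeR called 1.35% higher and 1.46% lower. At an unadjusted p under 0.05, 8.23% were higher and 8.8% lower, and DESeq2 called 4.21% higher and 4.45% lower. Of 21 other ERAD genes 0 passed in edgeR, with 4 higher and 1 lower at an unadjusted p under 0.05 and 4 called higher by DESeq2, and the median was 0.05. The nearest were Erlin1, a subunit of a complex that degrades the IP3 receptor (0.32, adjusted p = 0.0518), Rhbdd1, a rhomboid protease (0.48, adjusted p = 0.0749), and Ube2j1, the ubiquitin-conjugating enzyme of HRD1 (0.22, adjusted p = 0.118). Of 21 other folding enzymes 1 fell, Qsox1, a sulfhydryl oxidase (from 111 ± 6.10 to 84.1 ± 3.61 CPM, -0.40 on the log2 scale, adjusted p = 0.0157). That call held in 2 of the 6 fits without 1 library. At an unadjusted p under 0.05, 1 gene of that list was higher and 2 were lower, and DESeq2 called 1 higher and 1 lower. The median of that list was 0.04, and Ero1l, the oxidase that recharges the disulfide isomerases, had 0.29 (adjusted p = 0.132).

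Glycoprotein trimming (11 genes) had a median of -0.02, and the other translocation, signal peptidase and oligosaccharyltransferase genes (22) one of 0.05. Transport between ER and Golgi (21) had a median of 0.07 and the relatives of the sensors (12 tested of 14) one of 0.02. In these 4 lists edgeR called 0 genes. With the p left unadjusted, 2, 3, 5 and 1 genes were under 0.05, and DESeq2 called 1, 0, 3 and 0. Over all tested genes 8.23% were higher and 8.8% lower at that unadjusted threshold, and DESeq2 called 4.21% higher and 4.45% lower. Outside the ER, 0 of 25 cytosolic chaperones passed (3 at an unadjusted p under 0.05, 2 in DESeq2), with a median of 0.02. Of 10 mitochondrial chaperones and proteases 1 rose, Hspa9, the mitochondrial HSP70 (from 554 ± 8.08 to 658 ± 22.2 CPM, 0.25 on the log2 scale, adjusted p = 0.0365). The Hspa9 call held in 1 of the 6 fits without 1 library. ER to Golgi transport (18 genes above 0 and 3 below) and the mitochondrial list (8 and 2) also leaned upward. Other ERAD genes had 14 and 7, cytosolic chaperones 17 and 8, and glycoprotein trimming 4 and 7. Other folding enzymes had 12 and 9, other translocation genes 13 and 9, and relatives of the sensors 8 and 4. All treated libraries stood above all controls for 5, 4, 7, 8, 0, 3, 5 and 3 genes of these lists in turn (10.6% of all tested genes).

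**Figure D4:**
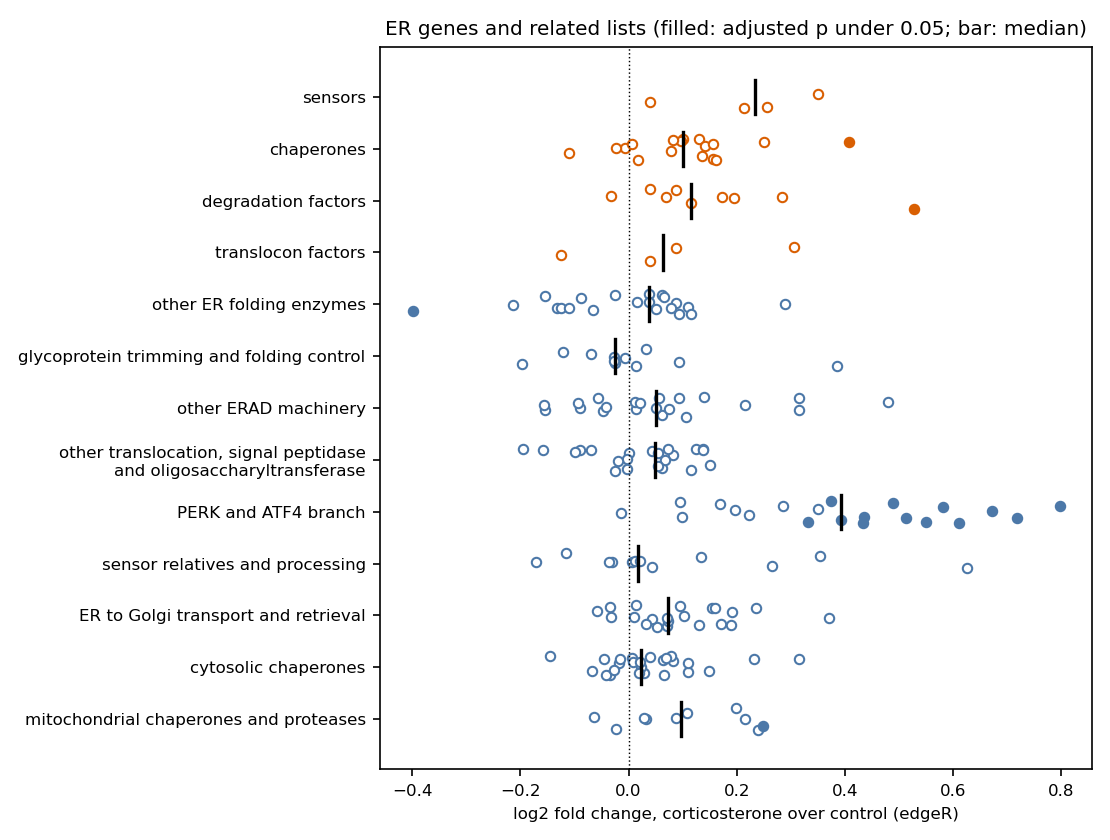
Log2 fold change (horizontal axis, corticosterone over control) of each tested gene in the ER roles (orange) and the related lists (blue), with filled points for genes that passed and black bars for list medians. The PERK and ATF4 branch has its median at 0.39 with 13 filled points, and the ER roles have medians from 0.06 to 0.23 with 2 filled points in all.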

How the data were processed

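RNA was sequenced from 6 libraries of 4T1 cells, 3 control and 3 corticosterone, grouped by the treatment field of the labels. The deposited table holds, per the file headers, a whole-number count and an FPKM value per gene and library. The authors did not normalize the counts, and the sources used here give no aligner, counter, strandedness or read layout. The submitters' processing notes name a human build, but all 28154 identifiers are mouse (ENSMUSG), and 29 of the 34 genes have the same coordinates in GENCODE M21 (GRCm38).

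Counts were scaled by TMM, filtered with filterByExpr (minimum count 10, minimum total 15) and fitted in edgeR 4.0.16 (R 4.3.3) by the quasi-likelihood test, with Benjamini-Hochberg adjustment over all 17283 tested genes and a threshold of 0.05. Standard errors, and the 95% confidence intervals made from them, come from the F statistic and its degrees of freedom. CPM are counts scaled to library depth with the TMM factors. Mean shifts of a list are averages over its genes of log2 CPM minus the control mean. Alternatives were DESeq2 1.42.0, limma 3.58.1 (voom with library weights, and log2(FPKM + 1) with its pseudocount at 0.1), other scalings, filters and thresholds, the replicate block and leaving out each library. Offsets for GC content and length were chosen after seeing the data. The fits were run on simulated counts that held no trend on GC content or length and no deviating library. That run therefore says nothing of how the fits handle treated replicate 2.

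The 34 genes, their roles and the related lists were chosen with earlier results of these data known. All 34 are named, and from each related list up to 3 genes with the lowest p, plus the receptor targets. From the PERK and ATF4 branch Atf4, Ddit3, Nupr1 and Ppp1r15b are also named, as genes that did not pass. Promoters are those of RefSeq (GRCm38.p6).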

Additional observations from a re-analysis of the deposited data

How the results depend on the processing

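With all libraries kept, Herpud1 and Hspa5 passed in each of the 10 other fits that were run. Of all 34 ER genes, 2 changed with both other scalings, with no low count filter, at an adjusted p under 0.01 and with the replicate block, and 3 with FPKM at either pseudocount. The number that changed was 8 in DESeq2 (8 higher), 16 in limma-voom with library weights (14 higher and 2 lower), 4 with a mean FPKM of at least 5 (4 higher), 6 at an adjusted p under 0.1 (6 higher) and 7 with offsets for GC content and length (7 higher). Leaving out 1 library gave 1 to 15 changed, 1 to 13 higher and 0 to 2 lower, the lowest without control replicate 2, where Hspa5 was lost, and the highest without corticosterone replicate 2. Over all tested genes the count of 487 went to 1293 in DESeq2, 4724 in limma-voom, 211 with no filter, 237 with the replicate block, 1143 with the offsets, 144 at an adjusted p under 0.01 and 889 at under 0.1, and to 88 to 3670 without 1 library. The median log2 fold change of the ER genes was 0.092 with upper quartile scaling, 0.12 with log2(FPKM + 0.1), 0.12 with a mean FPKM of at least 5 and 0.10 to 0.13 without 1 library. By role, DESeq2 called 2 sensors, 2 chaperones, 3 degradation factors and 1 translocon factor higher (4.21% of all genes). Leaving out corticosterone replicate 2 gave 3, 6, 3 and 1 higher (10.5% of all). Of the PERK and ATF4 branch 7 genes rose with no filter and 6 at an adjusted p under 0.01. Over the 34 genes and all settings 0 log2 fold changes that passed reversed. The cause of these differences was not tested.

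Libraries with the same number were not treated as pairs, as the labels state no pairing. Their deviations from the group means had Pearson r of 0.01, 0.04 and -0.09, and libraries with unlike numbers ran from -0.099 to 0.097. Deviations within a group are bound to cancel, so these values cannot decide whether the replicates were paired. The replicate block kept both calls. With 3 libraries a group, differences as small as those of Hyou1 and Hsp90b1 did not pass in edgeR (adjusted p = 0.173 and 0.229). Serp1, Xbp1, Sel1l and Derl1 lay nearer the threshold (adjusted p = 0.0614, 0.0685, 0.0787 and 0.0804). For Serp1, Syvn1 and Manf the part of the counts from the opposite strand was not tested.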

Other observations

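A few ER genes have near-identical copies elsewhere in the table, so reads could be shared between them depending on how they were counted. Transcripts of another gene at 90% identity or more over at least 150 bases were found for 6 of the 34. Calr-ps held 0.0008% as many counts as Calr, Gm6568 0.222% as many as Dnajb9 and Gm35638 0.544% as many as Derl1. Sec61b has 3 such copies, with 0.89% of its counts together. Hsp90b1 and Eif2ak3 match genes that overlap them on the opposite strand, 1810014B01Rik and Gm43292, with 0.731% and 0.0847% of their counts.

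Across the 34 ER genes the log2 fold change and the control FPKM had a Spearman rho of -0.23, given as a description over genes that share the same libraries. Control replicate 1 was the lowest of the 3 controls in 22 of the 34 genes, control replicate 2 in 5 and control replicate 3 in 7.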
